A study of Mus musculus with 16 samples.

Results

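Colony-stimulating factors are secreted proteins that drive the growth, survival and activation of myeloid cells, and this family was followed here in cells sorted from the healing bone-tendon interface. The members were chosen by gene name. They are the ligands Csf1, Csf2 and Csf3 and the receptor genes Csf1r, Csf2ra, Csf2rb, Csf2rb2 and Csf3r, 8 genes in all. Of these, 7 had values among the 20200 genes of the count table and all 7 passed the filter on low values that left 11998 genes for testing. Csf2 was not analysed here.

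The samples came from wild-type adult male C57BL/6J mice that underwent anterior cruciate ligament reconstruction, in which a tendon graft is fixed in bone tunnels. All groups shared this genotype and the surgery, and the known difference between the mice was the time after it. The days were sampled from different mice, so the day cannot be told apart from any batch of collection or library preparation. Live lineage-negative CD45+ cells were sorted from tissue of the interface, either 1 day or 14 days after surgery. The gates were Ly6G- CD11b+ F4/80+ CD9+ for the CD9+ macrophages, Ly6G- CD11b+ F4/80+ CX3CR1+ CD9- for the CX3CR1+ macrophages, Ly6G- CD11b+ F4/80- for the F4/80- myeloid cells, and Ly6G+ Ly6C+ for the neutrophils. Each of the 8 groups had 2 libraries, 16 in all, each from a pool of mice. The p-values measure the spread between libraries, which the main fits took as independent. From the number of mice in the methods, populations of a day were sorted from shared pools, but the labels do not say that libraries with the same replicate number came from the same pool.

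Total counts per library ran from 10587857 to 19814119 on day 1 and from 9233952 to 12721779 on day 14. The log2 values of the replicates correlated across genes at 0.935 in CD9+ macrophages on day 1 and at 0.976 to 0.988 in the other groups. The summed level of 9 neutrophil markers was 18323 CPM (library-scaled counts) in replicate 1 of the CD9+ macrophages on day 1 and 5554 CPM in replicate 2. Neutrophil markers were also abundant in the F4/80- myeloid cells, at 32779 to 37774 CPM on day 1 and 39882 to 43207 CPM on day 14, although Ly6g itself averaged 8.28 and 9.14 CPM there against 103 and 276 CPM in the neutrophils. The F4/80 gene Adgre1 averaged 139 CPM in the CD9+ and 177 CPM in the CX3CR1+ macrophages on day 1, 42.3 CPM in the neutrophils and 11.1 CPM in the F4/80- myeloid cells.

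In the mm10 build, Csf1 (ENSMUSG00000014599) lies on chromosome 3 from 107741048 to 107760469 on the minus strand and Csf3 (ENSMUSG00000038067) on chromosome 11 from 98701263 to 98703629 on the plus strand. Csf1r (ENSMUSG00000024621) lies on chromosome 18 from 61105572 to 61132149 and Csf3r (ENSMUSG00000028859) on chromosome 4 from 126024550 to 126044440, both on the plus strand. Csf2ra (ENSMUSG00000059326) lies on chromosome 19 from 61224402 to 61228418 on the minus strand. The beta chain genes are neighbours on chromosome 15, Csf2rb2 (ENSMUSG00000071714) from 78282507 to 78305721 on the minus strand and Csf2rb (ENSMUSG00000071713) from 78325752 to 78353847 on the plus strand. The values are counts over exons, and the strand setting of the counting was not given in the sources used here. Csf1r overlaps Hmgxb3 on the opposite strand, and each beta chain gene hosts a microRNA gene on its own strand, so reads of these overlapping genes may not be told apart fully.

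Csf1 encodes M-CSF, the growth factor of monocytes and macrophages, which acts through the receptor tyrosine kinase encoded by Csf1r. Csf3 encodes G-CSF, the main driver of neutrophil production, and Csf3r its receptor on neutrophils and their precursors. GM-CSF binds an alpha chain encoded by Csf2ra, which signals with the common beta chain encoded by Csf2rb. The mouse has a second beta chain, encoded by Csf2rb2, that serves interleukin-3 only, while the common beta chain also serves interleukin-3 and interleukin-5.

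The beta chain genes are near-identical copies, which bears on how their reads were assigned. Their coding sequences, 2688 bases for Csf2rb and 2634 bases for Csf2rb2 in the Gencode M21 transcripts, were identical at 2503 of 2628 aligned positions, or 95.2%, with a longest identical run of 242 bases. Of all distinct stretches of 100 bases in the full transcripts, untranslated parts included, 6.82% of those of Csf2rb2 occurred also in Csf2rb. The stretch of 120 bases with the most differences is shown, coding bases 309 to 428 of Csf2rb and 312 to 431 of Csf2rb2, with the 22 differing bases in capitals. Reads from such stretches tell the copies apart, and the counts of both genes remain uncertain where reads fell in shared stretches.
Csf2rb: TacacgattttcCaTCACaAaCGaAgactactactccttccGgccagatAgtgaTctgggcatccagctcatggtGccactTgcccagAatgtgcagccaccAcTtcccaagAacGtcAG
Csf2rb2: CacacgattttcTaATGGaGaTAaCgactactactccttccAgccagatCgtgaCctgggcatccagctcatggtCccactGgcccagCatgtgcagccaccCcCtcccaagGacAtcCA

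**Figure D1:**
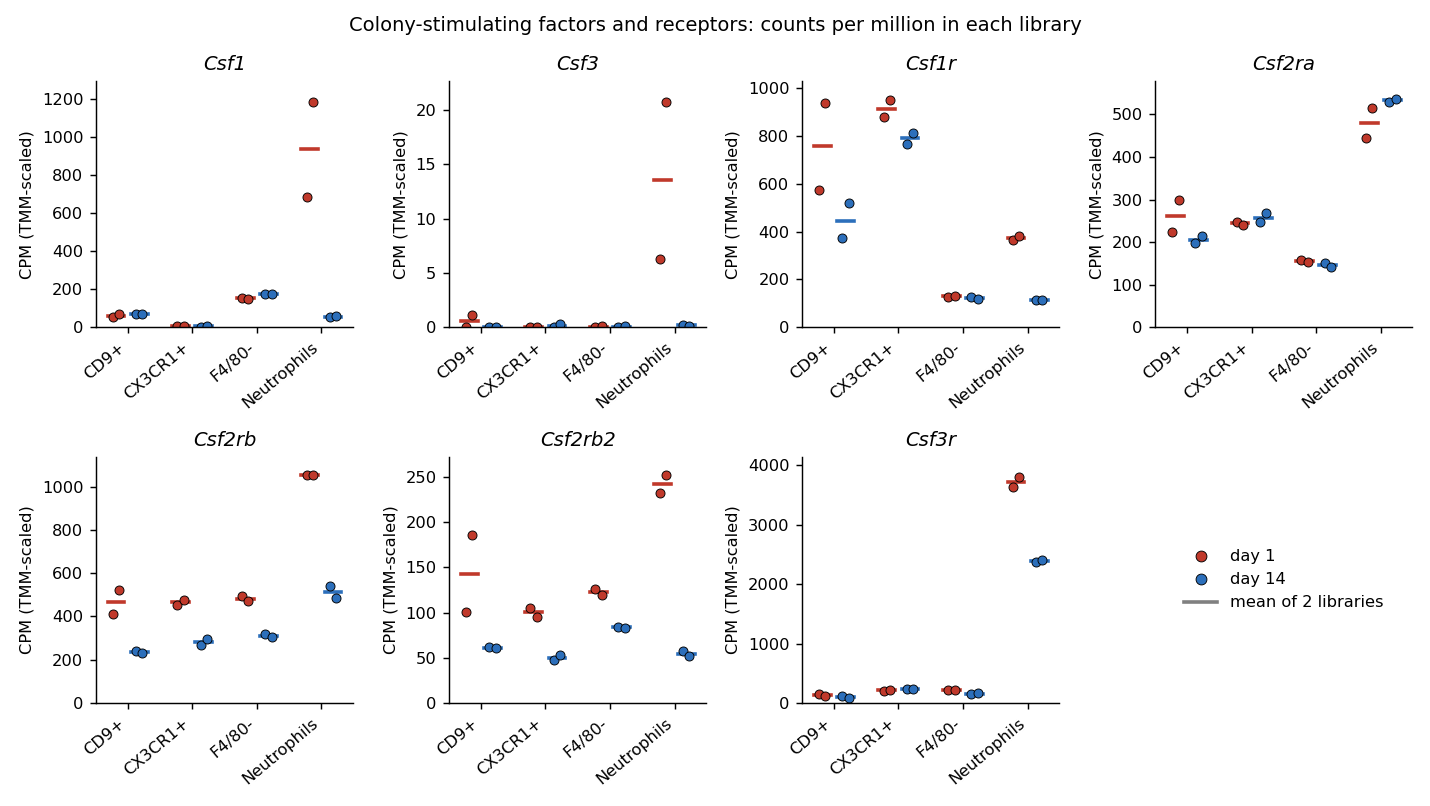
Level of each of the 7 measured members in every library, in CPM (library-scaled counts) on linear axes from 0, by population and day, with 2 libraries per group as points and the group mean as a line. Csf1 in the neutrophils dropped from 685 and 1187 CPM on day 1 to 56.4 and 57.1 CPM on day 14, and Csf3r was highest in the neutrophils on both days.

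The ligand genes changed most in the neutrophils. Csf1 fell 16.5-fold there between day 1 and day 14, while its level in the other populations moved by less than the test could call. Csf1 levels were 685 and 1187 CPM in the neutrophils on day 1 and 56.4 and 57.1 CPM on day 14. The replicates of day 1 lay well apart, yet both were far above those of day 14.

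The log2 fold change of Csf1 in the neutrophils was -4.04 (SE 0.23, edgeR adjusted p = 1.6e-08). In F4/80- myeloid cells Csf1 levels were 155 and 148 CPM on day 1 and 175 and 178 CPM on day 14, a log2 difference of 0.22 (95% interval -0.22 to 0.65, edgeR adjusted p = 0.63). In CD9+ macrophages they were 53.1 and 69.4 CPM, then 71.6 and 70.0 CPM, a log2 difference of 0.21 (95% interval -0.24 to 0.66, edgeR adjusted p = 0.53). The days did not overlap in either population, and the intervals include 0. CX3CR1+ macrophages had the lowest Csf1 on both days, 5.73 and 6.04 CPM on day 1 and 4.08 and 6.29 CPM on day 14, with overlapping days.

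The order of the populations in Csf1 therefore differed between the days. On day 1 the mean was 936 ± 355 CPM (SD, n = 2) in neutrophils, 152 ± 5.11 in F4/80- myeloid cells, 61.3 ± 11.5 in CD9+ and 5.89 ± 0.218 in CX3CR1+ macrophages. All 6 pairs of populations differed by the test on day 1, neutrophils exceeding F4/80- myeloid cells 6.17-fold (edgeR adjusted p = 6.1e-08), CD9+ macrophages 15.3-fold and CX3CR1+ macrophages 159-fold. On day 14 the F4/80- myeloid cells came first at 176 ± 1.90 CPM (SD, n = 2), 3.11-fold above the neutrophils (edgeR adjusted p = 7.6e-06). CD9+ macrophages, at 70.8 ± 1.09 CPM (SD, n = 2), and neutrophils, at 56.8 ± 0.502 CPM (SD, n = 2), were neighbours that the test did not separate on day 14 (log2 difference 0.32, 95% interval -0.14 to 0.77, edgeR adjusted p = 0.20).

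Csf3 was detected at more than a few counts only in the neutrophils on day 1, with the exception of 1 CD9+ library. The neutrophils yielded 84 and 237 raw counts on day 1, or 6.28 and 20.7 CPM, and 2 and 1 raw counts on day 14. Counts in the CD9+ macrophages were 0 and 11 early and 0 and 0 late, the CX3CR1+ macrophages 0 and 0, then 0 and 3, and the F4/80- myeloid cells 0 and 2, then 0 and 1. The 11 counts all came from replicate 2 of the CD9+ macrophages on day 1.

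Set against depth, Csf3 in the neutrophils was 78.0-fold higher on day 1 than on day 14, with a 95% interval from 26.4 to 380 that covers counting error only. The change also passed the test across all genes (edgeR adjusted p = 0.0037), but not with DESeq2 (DESeq2 Wald test, adjusted p = 0.094) nor without replicate 2 of the neutrophils on day 14 (edgeR adjusted p = 0.055). On day 1 the neutrophils were 27.9-fold (95% counting interval 15.4 to 56.4) above the CD9+ macrophages, a value that rests on the 11 counts of 1 CD9+ library, and with DESeq2 this difference was not called (DESeq2 Wald test, adjusted p = 0.14). Against the CX3CR1+ macrophages of day 1, where no count was seen in either library, they were at least 181-fold higher, taking 3 counts over the group as the limit.

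The receptor genes divided by population. On each day Csf1r was highest in both macrophage populations, and Csf3r, Csf2ra and Csf2rb were highest in the neutrophils. Every receptor gene was present in every library at 47.1 CPM or more. Csf1r levels were 878 and 947 CPM in CX3CR1+ macrophages on day 1 and 765 and 812 CPM on day 14. In CD9+ macrophages they were 575 and 937 CPM on day 1 and 373 and 518 CPM on day 14. CD9+ and CX3CR1+ macrophages overlapped on day 1, and on day 14 both CD9+ libraries lay below both CX3CR1+ libraries.

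F4/80- myeloid cells held Csf1r at 128 and 129.6 CPM on day 1 and at 125 and 118 CPM on day 14. In the neutrophils Csf1r levels were 364 and 381 CPM on day 1 and 113 and 113 CPM on day 14. Neutrophils thus lay between the macrophages and the F4/80- myeloid cells on day 1 and beside the F4/80- myeloid cells on day 14, where the log2 difference between these populations was 0.11 (95% interval -0.30 to 0.52, edgeR adjusted p = 0.63).

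Csf1r fell 3.30-fold in the neutrophils over time (log2 fold change -1.72, SE 0.19, edgeR adjusted p = 1.1e-05). In CD9+ macrophages it was lower on day 14 by a log2 difference of -0.76 (SE 0.19, edgeR adjusted p = 0.012), under the fold threshold. This value was -1.07 without replicate 1 of day 1, -0.36 without replicate 2 of day 1 and -1.01 without replicate 2 of day 14. The differences were -0.21 (95% interval -0.61 to 0.19) in CX3CR1+ macrophages and -0.08 (95% interval -0.49 to 0.32) in F4/80- myeloid cells, neither past the test. Between populations, Csf1r in CX3CR1+ macrophages exceeded that in F4/80- myeloid cells 7.09-fold on day 1 (edgeR adjusted p = 5.8e-08) and 6.49-fold on day 14 (edgeR adjusted p = 8.4e-08). CD9+ and CX3CR1+ macrophages were not separated on day 1 (log2 difference -0.27, 95% interval -0.67 to 0.13, edgeR adjusted p = 0.37). On day 14 CD9+ macrophages were 1.77-fold lower (edgeR adjusted p = 0.0041), under the fold threshold. The excess of CD9+ macrophages over neutrophils on day 1, 2.03-fold (log2 1.02, edgeR adjusted p = 2.1e-04), came down to 0.62 on the log2 scale without replicate 2 of the CD9+ macrophages, and with the replicate number as a block it was 0.996, which ended the call.

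Markers of other cells moved with the neutrophil results. In the neutrophil groups, with both libraries added, all 7 macrophage markers and all 4 monocyte markers were above the floor of 3 counts on both days. Mertk had no count in 1 of the neutrophil libraries of day 14. The macrophage sum was 209 to 219 CPM on day 1 and 70.0 to 74.9 CPM on day 14, and the monocyte sum 834 to 1108 CPM, then 428 to 443 CPM. The neutrophil marker sum was 49836 to 85042 CPM on day 1 and 107048 to 113270 CPM on day 14. The part of these levels in the changes of Csf1, Csf1r and the other receptor genes in neutrophils was not tested, and in bulk samples fewer cells of a type and less RNA per cell cannot be told apart. On day 1 CX3CR1+ macrophages had a macrophage sum of 787 to 814 CPM and Csf1 at 5.73 and 6.04 CPM. The stromal sum in the neutrophils was 10.2 to 48.7 CPM on day 1 and 20.5 to 21.3 CPM on day 14. How these values relate to Csf1 in the neutrophils was not tested.

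Csf3r levels were 3623 and 3795 CPM in the neutrophils on day 1 and 2364 and 2395 CPM on day 14. Every other library held 237 CPM or less. The CX3CR1+ macrophages had 209 and 217 CPM, then 232 and 237 CPM, and the F4/80- myeloid cells 213 and 214 CPM, then 145 and 164 CPM. CD9+ macrophages were lowest, with 155 and 121 CPM on day 1 and 120.3 and 91.0 CPM on day 14.

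The neutrophils exceeded the CD9+ macrophages 26.8-fold and both other populations 17.4-fold in Csf3r on day 1 (edgeR adjusted p = 1.6e-10 for the first). On day 14 the excess was 22.5-fold over CD9+ macrophages, 15.4-fold over F4/80- myeloid cells and 10.1-fold over CX3CR1+ macrophages. F4/80- myeloid cells and CX3CR1+ macrophages were level on day 1, with a 95% interval of the log2 difference from -0.32 to 0.32. On day 14 Csf3r was 2.22-fold lower in CD9+ than in CX3CR1+ macrophages (edgeR adjusted p = 4.0e-05), a log2 difference that came to -0.977 without replicate 2 of the CD9+ macrophages. Over time Csf3r was 1.56-fold lower in neutrophils on day 14 (log2 fold change -0.64, SE 0.15, edgeR adjusted p = 0.0047), under the fold threshold, and no other population passed the test.

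Csf2ra, the alpha chain of the GM-CSF receptor, was the member that moved least over time. Its levels in the neutrophils were 446 and 516 CPM on day 1 and 529.6 and 536 CPM on day 14. In CX3CR1+ macrophages they were 247 and 241 CPM, then 248 and 267 CPM, and in CD9+ macrophages 223 and 299 CPM, then 197 and 214 CPM. F4/80- myeloid cells had 159 and 154 CPM, then 151 and 141 CPM, below all other libraries on both days.

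The log2 change of Csf2ra over time was 0.15 in neutrophils (95% interval -0.14 to 0.44), 0.08 in CX3CR1+ macrophages, -0.10 in F4/80- myeloid cells and -0.35 in CD9+ macrophages (95% interval -0.64 to -0.05, edgeR adjusted p = 0.094), none past the test. Averaged over the populations the change was -0.05 (95% interval -0.20 to 0.09). Neutrophils exceeded the F4/80- myeloid cells 3.07-fold on day 1 (edgeR adjusted p = 9.3e-08) and 3.65-fold on day 14 (edgeR adjusted p = 2.6e-08). CD9+ and CX3CR1+ macrophages were not separated on either day, with log2 differences of 0.10 (95% interval -0.19 to 0.39) and -0.33 (95% interval -0.62 to -0.04, edgeR adjusted p = 0.094).

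Csf2rb was lower on day 14 in all 4 populations. Its levels in the neutrophils were 1052 and 1054 CPM on day 1 and 541 and 487 CPM on day 14. They were 412 and 522 CPM, then 241 and 229.8 CPM in CD9+ macrophages and 455 and 476 CPM, then 269.6 and 297 CPM in CX3CR1+ macrophages. F4/80- myeloid cells had 493 and 470.1 CPM, then 318 and 306 CPM. The days did not overlap in any population, but this also held for Csf3r and for Csf2ra, which moved least. How often it held among all tested genes was not counted.

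The fold of this decrease in Csf2rb was 2.05 in neutrophils, which was called (log2 fold change -1.04, SE 0.13, edgeR adjusted p = 2.7e-05). It was -0.99 on the log2 scale in CD9+ macrophages (edgeR adjusted p = 1.4e-04), -0.72 in CX3CR1+ macrophages (edgeR adjusted p = 0.0017) and -0.63 in F4/80- myeloid cells (edgeR adjusted p = 0.0082), below the threshold of 1 in each. The neutrophil value lay close to that threshold and was -0.96 without replicate 2 of day 14 and -0.99 with no filter on low values, which ended the call. The CD9+ value was -1.15 without replicate 1 of day 1 and -1.01 without replicate 1 of day 14. On day 1 Csf2rb did not separate the other populations, whose log2 differences ran from -0.05 to 0.00, and neutrophils exceeded each of them by 2.19-fold to 2.26-fold. Scaled by library size only, these excesses were no longer called, with log2 differences from -0.85 to -0.52.

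Averaged over the populations, Csf2rb2 decreased most among the receptor genes, although in F4/80- myeloid cells its log2 difference was smaller than that of Csf2rb. Its levels in the neutrophils were 232 and 252 CPM on day 1 and 57.0 and 52.0 CPM on day 14. CD9+ macrophages had 101 and 186 CPM, then 61.4 and 60.5 CPM, and CX3CR1+ macrophages 106 and 95.2 CPM, then 47.1 and 53.5 CPM. F4/80- myeloid cells had 126 and 119.9 CPM, then 84.6 and 83.1 CPM. No population had overlapping days, as was also so for Csf2ra and Csf3r, and the share of all tested genes with this pattern was not counted.

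Csf2rb2 fell 4.44-fold in neutrophils (log2 fold change -2.15, SE 0.21, edgeR adjusted p = 2.2e-06) and 2.34-fold in CD9+ macrophages (-1.23, SE 0.20, edgeR adjusted p = 9.2e-04). The CD9+ value was -0.72 without replicate 2 of day 1, the library with 186 CPM, and the call was lost. The difference was -0.998 in CX3CR1+ macrophages (SE 0.20, edgeR adjusted p = 0.0042), just short of the threshold (-1.01 and called with the replicate number as a block), and -0.55 in F4/80- myeloid cells (edgeR adjusted p = 0.12). On day 1 neutrophils exceeded CX3CR1+ macrophages in Csf2rb2 2.41-fold (edgeR adjusted p = 4.3e-05). The log2 difference was -0.70 scaled by library size only and -0.99 scaled by the upper quartile, and was then not called. On day 14 no pair of populations was called, and F4/80- myeloid cells had the highest level.

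**Figure D2:**
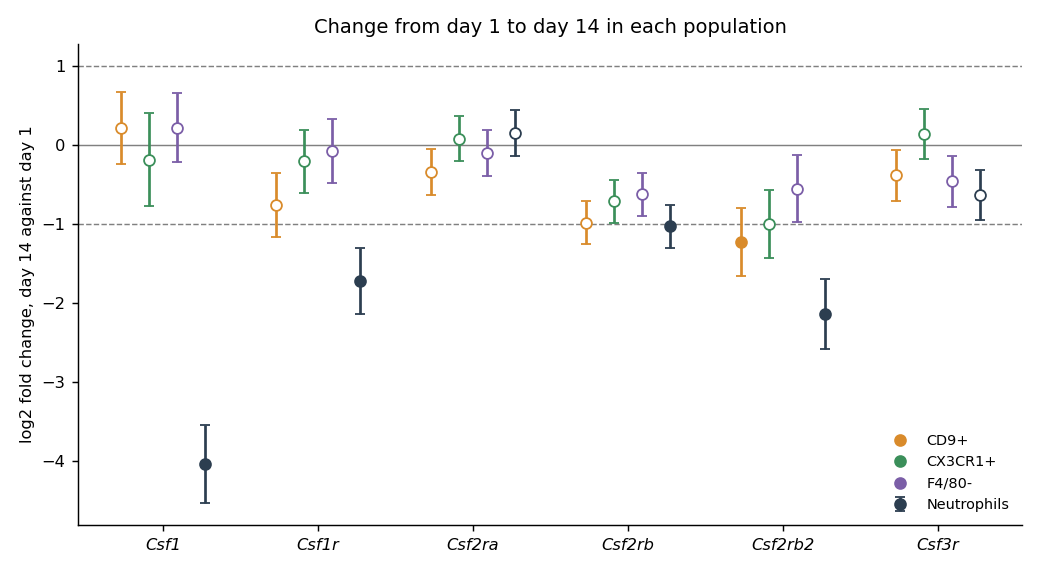
Log2 fold change of 6 members, without Csf3, from day 1 to day 14 in each population, as points with 95% intervals; filled points were called, and dashed lines mark the threshold of 1 in either direction. The neutrophil values of Csf1 (-4.04), Csf2rb2 (-2.15) and Csf1r (-1.72) lie farthest below 0, and the values of Csf2ra lie between -0.35 and 0.15.

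Over the 4 populations, 6 of 28 member values were called over time, all lower on day 14. Among all tested genes 7.86% of such values were called, 5.03% lower. In the neutrophils 5 of 7 members were called, against 14.1% of all tested genes, and in CD9+ macrophages 1 of 7, against 8.23%. None was called in CX3CR1+ macrophages, where 5.86% of all genes were, or in F4/80- myeloid cells, where 3.25% were. At an adjusted p under 0.05 with no fold threshold the count over the 4 populations was 12. The count was 9 without replicate 1 of the CD9+ macrophages on day 1, the library with the higher neutrophil marker sum, and 4 without replicate 2 of the neutrophils on day 14. Without Csf3, whose fitted fold changes rest on counts near 0, the median log2 change of the other 6 members was -1.38 in neutrophils, -0.58 in CD9+ macrophages, -0.28 in F4/80- myeloid cells and -0.20 in CX3CR1+ macrophages, beside medians over all tested genes from -0.02 to 0.03.

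Averaged over the 4 populations with equal weight, Csf2rb2 was the 1 of 7 members called (log2 change -1.23, SE 0.10, edgeR adjusted p = 2.4e-07), against 8.06% of all tested genes. Csf2rb changed by -0.84 (edgeR adjusted p = 1.1e-07), Csf1 by -0.95, Csf1r by -0.69 and Csf3r by -0.34 (edgeR adjusted p = 0.0024), each under the fold threshold. The mean for Csf1 combines a large neutrophil value with 3 small ones. The fit took all 16 libraries as independent, although populations of a day were sorted from shared pools. The SE and p-values of these means do not allow for that sharing.

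The change over time was then compared between populations by an interaction term. Of 42 member values over 6 pairs of populations, 7 were called, all higher, while 4.97% of all such values were called and 3.87% higher. Higher means a positive difference, the change in the population named first minus that in the second. All 7 were against the neutrophils, where the decrease was larger. In the pairs with neutrophils 7 of 21 member values were called, against 8.28% of the values of all tested genes. The higher calls among all tested genes were 6.26% to 7.3% in each of these pairs. The other 3 pairs of populations gave no member call out of 21 values, beside 1.66% of all tested genes. Csf1 differed from the neutrophils by 4.26 on the log2 scale in F4/80- myeloid cells (SE 0.30, edgeR adjusted p = 7.4e-07), by 4.26 in CD9+ (SE 0.31) and by 3.86 in CX3CR1+ macrophages (SE 0.36). Csf1r and Csf2rb2 differed in CX3CR1+ macrophages and F4/80- myeloid cells. In CD9+ macrophages the corresponding values were 0.96 for Csf1r (edgeR adjusted p = 0.032) and 0.92 for Csf2rb2 (edgeR adjusted p = 0.049), short of the fold threshold.

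Between populations on the same day, 22 of 42 member values were called on day 1 and 17 of 42 on day 14, where 32.4% and 31.6% of the values of all tested genes were. With neutrophils on one side, 17 of 21 values were called on day 1 and 11 of 21 on day 14, against 49.8% and 48.7% of all genes. Among the other 3 populations 5 of 21 and 6 of 21 were called, against 14.9% and 14.5%. These 11 calls concerned Csf1, Csf1r and, in 1 of them, Csf3r. Scaling by library size alone moved the median of all genes by 0.33 to 0.61 in the comparisons with neutrophils. Under it 7 of the day 14 calls were for the population named first in the pair and 8 for the second, in place of 6 and 11. Of the day 1 calls 5 were then for the first and 12 for the second, in place of 5 and 17.

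**Figure D3:**
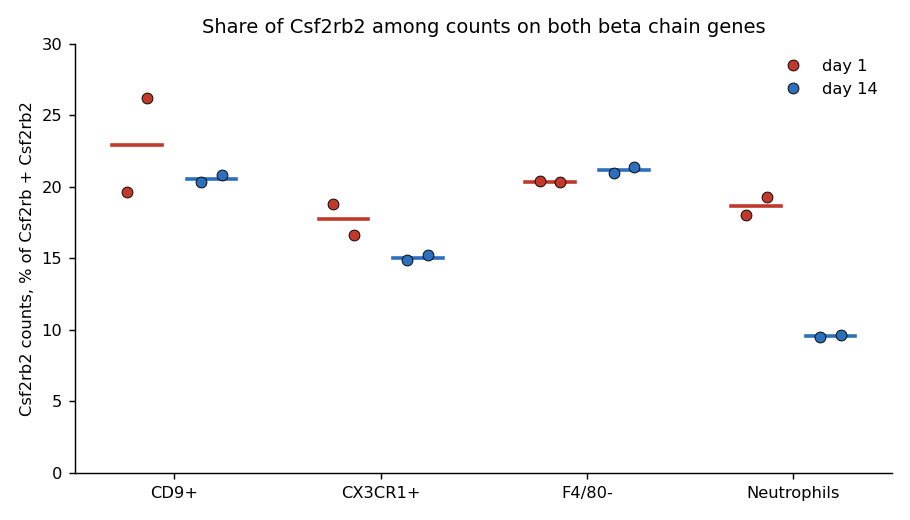
Share of Csf2rb2 in the summed counts of Csf2rb and Csf2rb2, in percent, for every library by population and day, with the group mean as a line. The 2 neutrophil libraries lay at 18.1 and 19.3% on day 1 and at 9.53 and 9.65% on day 14, below every other library.

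The ratio of the beta chain genes was compared over time as well. Csf2rb2 made up 18.1 and 19.3% of the summed counts of the beta chain genes in neutrophils on day 1 and 9.53 and 9.65% on day 14. In CX3CR1+ macrophages the share was 18.8 and 16.7%, then 14.9 and 15.3%. In F4/80- myeloid cells it was 20.4 and 20.3%, then 21.0 and 21.4%. CD9+ macrophages had 19.6 and 26.2%, then 20.3 and 20.8%, the only population whose days overlapped. The share was lower on day 14 in neutrophils and CX3CR1+ macrophages and slightly higher in F4/80- myeloid cells.

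As a log2 ratio of Csf2rb2 to Csf2rb the change over time was -1.11 in neutrophils, -0.28 in CX3CR1+ macrophages, -0.19 in CD9+ macrophages and 0.07 in F4/80- myeloid cells. The mean of these was -0.38, with p = 0.045 in a two-sided exact permutation test of the days within populations, for which the smallest possible p was 0.0015. That test takes the libraries as independent. With libraries of the same number paired over the days the exact permutation p was 0.078, and with the days permuted over pools, taking same-numbered libraries of a day as 1 pool, it was 0.33, the smallest that 6 permutations can give. The p was 0.051 when the first exact permutation test was run on the share itself. It reached 0.10 without replicate 2 of the CD9+ macrophages on day 1, where the mean was -0.31. Of 21 alternatives of the exact permutation test, 9 gave a p above 0.05. The shares mix real levels with any misassigned reads of the shared stretches, and that part was not tested.

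**Figure D4:**
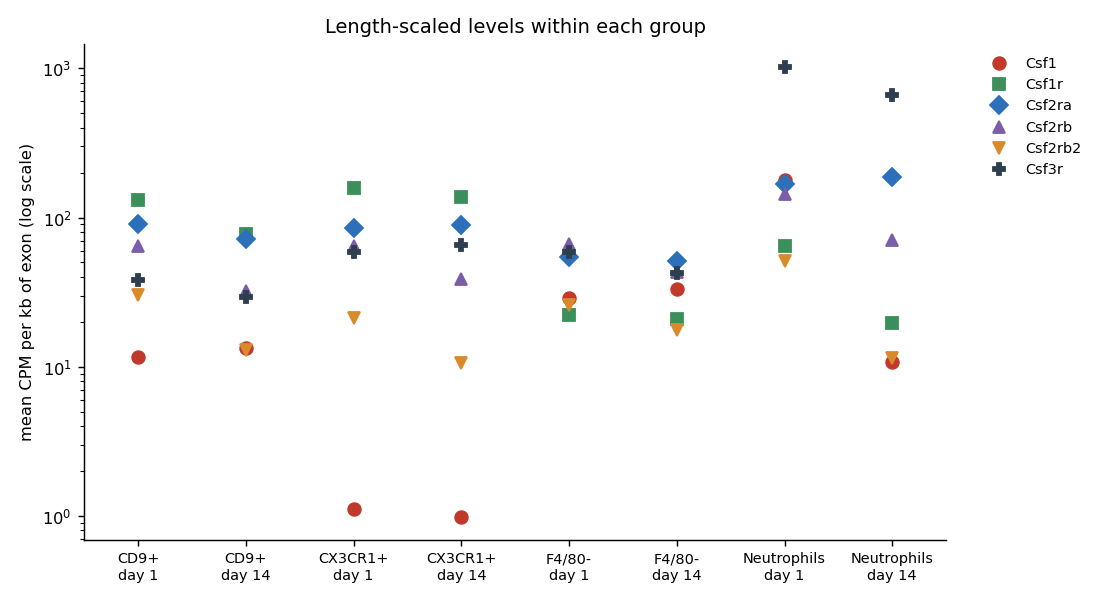
Mean level of 6 members, without Csf3, per exon length, in CPM per kilobase on a log axis, by group, with 2 libraries each. Csf3r in neutrophils stands highest, at 1028 CPM per kilobase on day 1 and 659 on day 14, and Csf1 in CX3CR1+ macrophages is at 1.12 and 0.982.

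Levels per exon length allow the members to be compared with each other. In the neutrophils Csf3r came first on both days, at 1028 ± 33.6 CPM per kilobase (SD, n = 2) on day 1 and 659 ± 6.17 (SD, n = 2) on day 14. Csf1 was second on day 1 at 177 CPM per kilobase, close to Csf2ra at 167 and Csf2rb at 145, and sixth on day 14 at 10.8, next to Csf2rb2 at 11.5. Csf1 spread by 67.3 CPM per kilobase (SD, n = 2) on day 1, so its place among these neighbours was within the replicate error.

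In both macrophage populations Csf1r led. Its level per length was 158 CPM per kilobase in CX3CR1+ macrophages on day 1 and 137 on day 14, and 131 and 77.1 in CD9+ macrophages. Csf2ra was second on both days, at 90.9 and 71.5 CPM per kilobase in CD9+ macrophages, where its libraries overlapped those of Csf1r on both days. In F4/80- myeloid cells no member stood apart, Csf2rb, Csf3r and Csf2ra lying between 54.5 and 66.2 CPM per kilobase on day 1 and between 42.8 and 50.9 on day 14. Csf1 reached 28.7 and 33.4 CPM per kilobase there, the highest Csf1 of any group on day 14.

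The promoters of members that moved together or apart are shown to give the sequence context. Sequences are given for 4 members from the RefSeq promoters used here (GRCm38.p6), each as 300 bases from 250 before to 50 after the start site, read 5′ to 3′ on the strand of the gene. Capitals mark matches to motifs that were chosen after the sequences had been read. They were TGACTCA, bound by AP-1, GAGGAA, the core bound by PU.1, the myeloid lineage factor, and TTCCNGGAA, the core bound by STAT factors. Both strands were searched, and the motifs do not contain each other.
Csf1, chr3:107760420-107760719, minus strand: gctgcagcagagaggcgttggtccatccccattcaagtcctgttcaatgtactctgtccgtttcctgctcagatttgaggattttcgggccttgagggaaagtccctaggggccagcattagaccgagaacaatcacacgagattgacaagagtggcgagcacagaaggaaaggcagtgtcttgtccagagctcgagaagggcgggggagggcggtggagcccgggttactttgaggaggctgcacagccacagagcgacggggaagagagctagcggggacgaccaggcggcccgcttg
Csf2ra, chr19:61228369-61228668, minus strand: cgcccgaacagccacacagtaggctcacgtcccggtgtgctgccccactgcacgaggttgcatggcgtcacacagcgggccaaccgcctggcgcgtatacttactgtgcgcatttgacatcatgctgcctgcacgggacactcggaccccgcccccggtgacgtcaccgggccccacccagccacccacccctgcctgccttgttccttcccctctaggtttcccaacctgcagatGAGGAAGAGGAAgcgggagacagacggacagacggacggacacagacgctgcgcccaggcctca
Csf2rb2, chr15:78305672-78305971, minus strand: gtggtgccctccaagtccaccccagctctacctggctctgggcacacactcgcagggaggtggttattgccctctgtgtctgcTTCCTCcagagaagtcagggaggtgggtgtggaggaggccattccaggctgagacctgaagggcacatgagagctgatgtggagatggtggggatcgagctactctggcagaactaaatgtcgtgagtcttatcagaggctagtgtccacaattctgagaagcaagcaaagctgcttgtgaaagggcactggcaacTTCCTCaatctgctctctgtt
Csf3r, chr4:126024409-126024708, plus strand: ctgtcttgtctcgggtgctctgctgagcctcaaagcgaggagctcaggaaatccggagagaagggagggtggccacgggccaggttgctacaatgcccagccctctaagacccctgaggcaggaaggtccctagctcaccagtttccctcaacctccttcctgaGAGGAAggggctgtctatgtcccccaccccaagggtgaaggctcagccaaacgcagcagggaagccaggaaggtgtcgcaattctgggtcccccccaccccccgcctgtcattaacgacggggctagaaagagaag

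GAGGAA occurred at 14 and 8 bases before the start of Csf2ra, at 86 before that of Csf3r, and on the opposite strand at 2 places of Csf2rb2. It was found in 28.3% of 32851 promoters of the same length, and the Csf1 window held none of the motifs. TGACTCA and TTCCNGGAA were in none of the 4 windows, and 5.2% and 1.15% of all promoters held them. These matches describe letters only.

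The genes whose log2 CPM followed each member most closely over the 16 libraries are given as a description. The libraries share 4 populations and 2 days, so most of each correlation is the contrast between groups. Csf1r was closest to Slc43a2 (Pearson r = 0.985) and to the macrophage marker Cd68 (0.979), Csf3r to Ddx6 (0.992) and Eif1 (0.990), and Csf2ra to Fosl2 (0.992) and Per1 (0.983). Csf2rb was closest to Hnrnph2 (0.984) and then Gapdh (0.950), and Csf2rb2 to the kinase gene Jak3 (0.976), then to Hspa5 and Atf5 (both 0.944). Csf1 followed Mreg (0.956) and Junos (0.955), and Csf3 followed Gm15340 (0.967), Plcxd2 (0.960) and the hexokinase gene Hk2 (0.957). Genes below these in the first 5 of each member had r from 0.911 to 0.986.

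Around the members, 4 lists of pathway genes were followed, namely related ligands and receptors, signal transducers, brakes on the signal, and genes that these factors are known to induce. Over time 49 of 288 list values were called, 13 higher and 36 lower, beside 7.86% of the values of all tested genes. Of the 27 signal transducers 3 of 108 values were called, all lower and all in neutrophils. These were Jak2, the kinase bound to the beta chains, with 398 to 575 CPM on day 1 and 145 to 162 CPM on day 14 (log2 fold change -1.66, SE 0.15, edgeR adjusted p = 8.9e-07), the adaptor Gab2 (-1.20) and the kinase Map2k1 (-1.19). The list medians of the transducers ran from -0.18 to 0.06 over the populations.

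Of the brakes 17 were tested and 14 of 68 values were called, 3 higher and 11 lower. Socs3, the feedback inhibitor that binds the G-CSF receptor and gp130, fell in all 4 populations, by log2 changes of -2.43 in CD9+ and -2.82 in CX3CR1+ macrophages, -3.57 in F4/80- myeloid cells and -2.07 in neutrophils. The 3 higher values were all of Dusp5, a phosphatase acting on ERK, in CD9+ macrophages (1.23), F4/80- myeloid cells (1.01) and CX3CR1+ macrophages (1.06). Cish, a target and brake of STAT5, fell in neutrophils (-2.13, edgeR adjusted p = 1.4e-04), from 40.7 to 67.8 CPM on day 1 to 10.5 to 14.3 CPM on day 14. Dusp4 fell there from 67 counts to 3, a ratio of 16.3 (95% counting interval 5.33 to 80.9). The dock protein gene Dok2 fell in CX3CR1+ macrophages (-2.89).

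Of the induced genes 20 were tested and 24 of 80 values were called, 3 higher and 21 lower. Arg1, which encodes arginase, fell in all 4 populations, by -5.95 on the log2 scale in CD9+ and -8.67 in CX3CR1+ macrophages. In F4/80- myeloid cells 5098 counts of Arg1 stood against 2, a ratio of 1566 (95% counting interval 433 to 12935), and in neutrophils 2103 against 1. In neutrophils 10 values were lower, among them those of Cd274, which encodes PD-L1, the early response gene Ier3 (both -3.41) and the survival gene Bcl2l1 (-2.45). The median of the list was -1.37 in neutrophils and from -0.30 to 0.18 in the other populations. The 3 higher values were those of Irf4 in CX3CR1+ (2.71) and CD9+ macrophages (1.497) and of Myc in CD9+ macrophages (1.02). Genes named beyond the 2 highest and 2 lowest of each list and population were chosen after their values were seen.

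Of the related ligands and receptors 8 were tested, and Il34, Il3 and Il5 were not analysed here. Of 32 values 7 were higher and 1 lower on day 14. In CD9+ macrophages the interleukin-6 gene Il6 (2.28), the interleukin-5 receptor gene Il5ra (2.08) and the stem cell factor receptor gene Kit (1.86) rose. The eosinophil marker sum, which includes Il5ra itself, rose beside them, from 503 to 566 CPM on day 1 to 5841 to 9416 CPM on day 14. Its part in these changes and in those of the members in CD9+ macrophages was not tested. The monocyte sum in the same libraries was 13528 to 17647 CPM, then 3989 to 5228 CPM, and the basophil and mast cell sum 62.7 to 119 CPM, then 185 to 237 CPM. In CX3CR1+ macrophages Flt3 rose (1.61), and Il5ra had 12 counts on day 14 against 0, at least 7.53-fold more. In these libraries the dendritic cell marker sum, which includes Flt3 itself, was 11.9 to 13.9 CPM on day 1 and 52.0 to 58.2 CPM on day 14. The macrophage sum was 787 to 814 CPM, then 463 to 526 CPM, and the part of both sums was not tested. Il6 rose in F4/80- myeloid cells (1.13), where the basophil and mast cell sum was 753 to 898 CPM, then 1182 to 1264 CPM, while in neutrophils Kit rose (1.82) and Il6st, the gp130 gene, fell (-2.47).

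**Figure D5:**
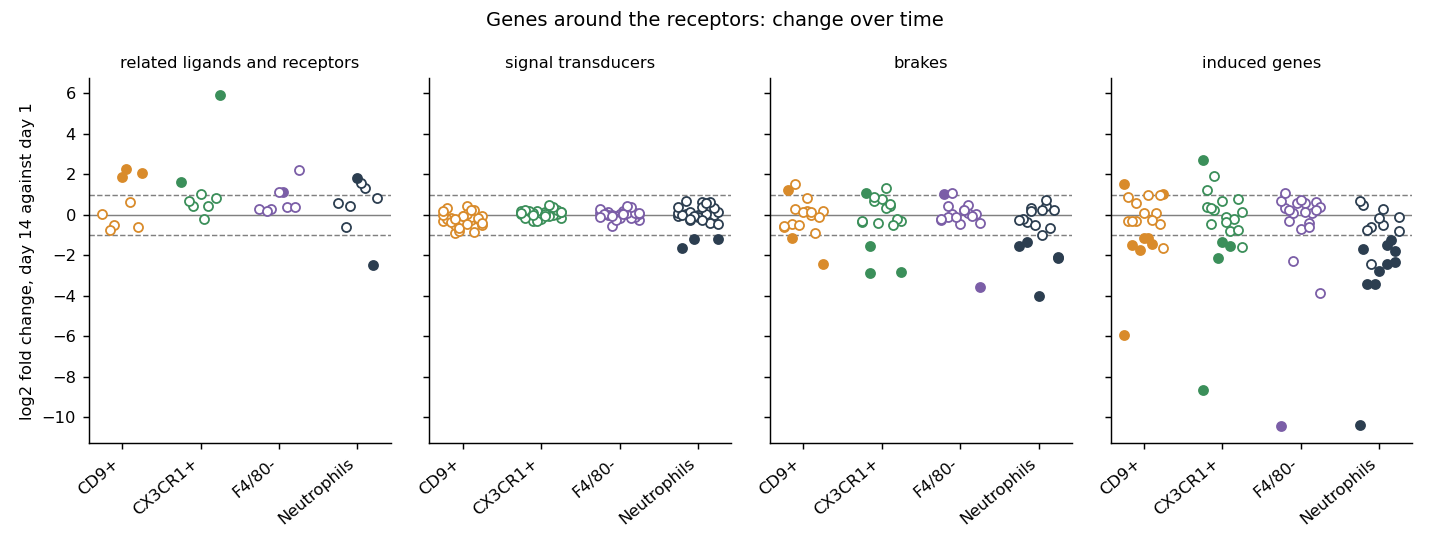
Log2 fold change from day 1 to day 14 for every tested gene of the 4 lists, by population, with called values as filled points and dashed lines at a change of 1 in either direction. The induced genes in neutrophils have a median of -1.37. The medians of the signal transducers run from -0.18 to 0.06, and Jak2, Gab2 and Map2k1 were called lower in neutrophils. Some fitted values rest on few counts in 1 of the groups. These are Arg1 in F4/80- myeloid cells and neutrophils, Dusp4 in neutrophils and Il5ra in CX3CR1+ macrophages.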

How the data were processed

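Libraries were made with the SMART-Seq Stranded kit. The authors ran Cutadapt on the paired-end reads and STAR against mm10, counted reads over Gencode exons and deposited raw counts per gene in 1 table. The filter behind its 20200 genes, the smallest total being 17, was not given in the sources used here.

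CPM values used TMM factors. Genes with a mean of at least 3 CPM in at least 1 group entered the quasi-likelihood test of edgeR 4.0.16 (glmQLFTest, with limma 3.58.1 in R 4.3.3), with a mean per group for all 16 libraries. A call needed a Benjamini-Hochberg adjusted p under 0.05 over all 11998 genes and a log2 fold change of 1 or more in either direction. Counting intervals and floors (3 counts) cover counting error only. The biological coefficient of variation was 0.178. In simulated libraries that all had this variation (10843 genes), 24 of 59 genes changed 2-fold were called, and all 65 changed 4-fold. A 2-fold change lies on the threshold itself. The real CD9+ replicates of day 1 were less alike than those of other groups, so these counts do not describe the CD9+ comparison.

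The named genes were all members, the 2 highest and 2 lowest called genes of each list, the 5 genes most correlated with each member (log2 CPM, prior count 2), and cell markers set beside a result. The members and lists were chosen with earlier results of these data known. Alternatives covered scaling, filters, DESeq2 1.42.0, thresholds, the replicate block and each library left out.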

Additional observations from a re-analysis of the deposited data

Results flagged for a closer look

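The change from day 1 to day 14 differed between the neutrophils and other populations for 3 members, by a test of the difference itself. All values are on the log2 scale and are the change in the other population minus that in the neutrophils, with p-values of edgeR's quasi-likelihood test adjusted by Benjamini-Hochberg. For Csf1 the difference was 4.26 in CD9+ macrophages (SE 0.31, edgeR adjusted p = 1.5e-06), 3.86 in CX3CR1+ macrophages (SE 0.36, edgeR adjusted p = 6.9e-06) and 4.26 in F4/80- myeloid cells (SE 0.30, edgeR adjusted p = 7.4e-07). For Csf1r it was 1.51 in CX3CR1+ macrophages (SE 0.27, edgeR adjusted p = 0.0016) and 1.64 in F4/80- myeloid cells (SE 0.27, edgeR adjusted p = 9.6e-04). For Csf2rb2 it was 1.15 in CX3CR1+ macrophages (SE 0.28, edgeR adjusted p = 0.015) and 1.59 in F4/80- myeloid cells (SE 0.28, edgeR adjusted p = 0.0017). In all 7 both neutrophil libraries of day 14 lay below both of day 1. The Csf2rb2 value in CX3CR1+ macrophages had an adjusted p of 0.11 with edgeR's test against a minimum fold (glmTreat). It was also lost with a library left out in 3 cases, with edgeR adjusted p = 0.065 without replicate 2 of the CX3CR1+ macrophages on day 1, 0.071 without replicate 2 of the same cells on day 14 and 0.073 without replicate 2 of the neutrophils on day 14. The macrophage marker sum of the neutrophil libraries, 209 to 219 CPM on day 1 and 70.0 to 74.9 CPM on day 14, moved in the same direction as these genes, and its part was not tested.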

How the results depend on the processing

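With 2 libraries per group, leaving one out assumes that the lone library varied like those of the other groups. None of 2343 alternative values for 84 single-gene results changed sign, 38 lost and 75 gained a call. Csf2rb on day 1 fell to log2 differences of -0.85, -0.61 and -0.52 against neutrophils when scaled by library size only, and Csf1r on day 1 in F4/80- myeloid cells against neutrophils to -0.92. Csf2rb2 on day 14 in F4/80- myeloid cells against neutrophils rose to 1.18 there. Csf2rb2 over time in CX3CR1+ macrophages was called in 17 of 28 alternatives, and in CD9+ macrophages its adjusted p was 0.073 with only the compared groups in the fit. Csf3 outside the neutrophils of day 1 was at or below the floor of 3 counts, except for 11 counts in replicate 2 of the CD9+ macrophages on day 1.

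Without the fold threshold the members' calls rose from 6 to 12 over time, from 17 to 27 between populations on day 14 and from 1 to 5 for the mean change, which was 3 with glmTreat. Over all alternatives the members' calls between populations on day 1 ran from 16 to 30, against 22 in the main fit. Between populations 173 of 432 list values were called on day 1 and 166 of 432 on day 14, beside 32.4% and 31.6% for all tested genes. List calls went from 49 to 86 over time and from 339 to 523 between populations without the threshold. They went to 25 and 177 with the filter in every group, which tests fewer genes. With a library left out, members' calls ran from 4 to 9 over time, 22 to 24 on day 1, 16 to 17 on day 14, 1 to 2 for the mean change and 6 to 10 for differences in the change, and list calls from 44 to 55 and 319 to 357. The count over time was 9 without replicate 1 of the CD9+ macrophages on day 1 and 4 without replicate 2 of the neutrophils on day 14, and the mean change gave 2 calls without replicate 1 of the neutrophils on day 1 or without replicate 2 of the CX3CR1+ macrophages on day 14.

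Whether replicate numbers pair the samples is not given by the labels. Deviations of same-numbered libraries correlated at 0.013 to 0.144 within a day, all above 0 but not all over 0.1, so the fits had no block. A replicate block within each day changed 3 calls, to log2 values of -1.01 for Csf2rb2 over time in CX3CR1+ macrophages (called) and 0.996 for Csf1r in CD9+ macrophages against neutrophils on day 1 (not called), and it called the Csf3 difference in change of CX3CR1+ macrophages. It moved other log2 changes by up to 0.046. The mean log2 ratio of the beta chain genes, -0.38, ran from -0.44 to -0.31 with a library left out (highest p = 0.10, exact permutation test). As a share the change was -3.32 percentage points (p = 0.051, exact permutation test), with pairing by replicate number it was -0.38 (p = 0.078, exact permutation test), and with days permuted over pools, chosen after seeing the data, it was -0.38 (p = 0.33, exact permutation test, the smallest possible).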
